A study of Mus musculus with 8 samples.

Results

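The loci of 3 transcription factor genes of ventral forebrain progenitors, Olig1, Olig2 and Gsx2, were examined for binding of the homeodomain factor OTX2 in the mouse subpallium at embryonic stage E12.5. Members were all peaks of 8 deposited lists (mm9) whose centre lay in 1 of 2 windows of 600 kb. The Olig window ran from 90950000 to 91550000 on chromosome 16, with Olig2 near 91.23 Mb and Olig1 near 91.27 Mb. The Gsx2 window ran from 75170000 to 75770000 on chromosome 5, with Gsx2 near 75.47 Mb. The windows held 59 of 26317 peaks in all: 9 of 1848 in OTX2 replicate 1, 8 of 1298 in OTX2 replicate 2, 42 of 22325 in OTX2 replicate 3, and 0 in every control list. The control lists were shorter, with 138, 142 and 235 peaks in input replicates 1, 2 and 3. IgG replicates 1 and 2 had 149 and 182 peaks. Each library came from basal ganglia and septum of wildtype CD-1 embryos, pooled over several animals and untreated. Chromatin was precipitated with an anti-OTX2 antibody (3 libraries) or normal goat IgG (2 libraries), or was sequenced as input without antibody (3 libraries). The lists give positions and ranks (1 is best) without heights, folds or read depth, and no expression values with which the labelled tissue could be checked. The list of replicate 3 stood apart by its length and by its median peak width of 827 bp, against 191 and 182 bp in replicates 1 and 2, and its track name differed.

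Olig1 and Olig2 are neighbouring genes for basic helix-loop-helix factors. Olig2 is expressed in progenitors of the ganglionic eminences and is needed for oligodendrocyte precursors, and Olig1 acts in oligodendrocyte maturation. Gsx2 encodes a homeodomain factor that sets the identity of progenitors in the lateral ganglionic eminence and limits the spread of pallial identity. OTX2 patterns the forebrain and midbrain, and its homeodomain recognises the core TAATCC, a variant of the TAAT core shared by most homeodomains. Genes of this kind are often controlled by enhancers far from their promoters. In the GRCm38 gene table, Olig2 lies between the protein-coding genes 4932438H23Rik and Olig1, and Olig1 is followed by Ifnar2, an interferon receptor subunit. Gsx2 lies between Chic2 and Pdgfra, the receptor that marks oligodendrocyte precursors. No annotation of mm9 was used, so no peak was assigned to any of these genes.

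The promoters are shown because replicate 3 had peaks at the approximate gene positions. RefSeq promoter entries (GRCm38.p6) matched Olig2 and Gsx2, 2 of the 3 members. The 250 bases before each gene start are given 5′ to 3′ on the plus strand, at chr16:91225300-91225549 for Olig2 and chr5:75075351-75075600 for Gsx2 in GRCm38.p6. These coordinates cannot be set against the mm9 peak positions. Capitals mark the letters TAAT, on either strand.
Olig2: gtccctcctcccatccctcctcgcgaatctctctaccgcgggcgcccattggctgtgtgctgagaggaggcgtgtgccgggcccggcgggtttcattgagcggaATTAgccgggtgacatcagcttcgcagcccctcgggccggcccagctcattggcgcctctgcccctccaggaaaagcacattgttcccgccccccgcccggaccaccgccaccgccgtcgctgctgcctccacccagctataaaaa
Gsx2: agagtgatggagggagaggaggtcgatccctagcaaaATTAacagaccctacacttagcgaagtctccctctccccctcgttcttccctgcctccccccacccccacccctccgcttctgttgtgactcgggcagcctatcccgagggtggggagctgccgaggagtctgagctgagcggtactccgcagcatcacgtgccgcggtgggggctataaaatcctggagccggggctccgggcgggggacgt
Neither promoter window (250 bases before to 50 after the start) held TAATCC or its reverse complement GGATTA. Of 32851 promoter windows of that length, 7.06% held it. TAAT was found at 2 places in the Olig2 window, 1 of them in the stretch shown, and at 1 place in the Gsx2 window. It was in 58% of all promoter windows, and a TAATCC match also counts as TAAT. Over 16 progenitor factor genes of the subpallium, 12 had entries, with 18 promoter windows. TAATCC was in 2 of these 18, at Otx2 and Sp8, and TAAT in 14. A match is a run of letters and not a site of binding.

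The first comparison asked whether the loci had more peaks with the OTX2 antibody than in background chromatin. The Olig window had 6, 5 and 27 peaks in OTX2 replicates 1, 2 and 3, and the Gsx2 window had 3, 3 and 15. Each input and IgG list had 0 in both windows, and the nearest control peak lay 2.85 Mb from a window's edge. OTX2 and input lists thus did not overlap at either locus, and replicate 3 was the highest at both. Peak numbers were not scaled to list length, and every control list was shorter than every OTX2 list. The mean was 12.7 ± 12.4 peaks (SD, n = 3) for OTX2 against 0 ± 0 (SD, n = 3) for input in the Olig window. It was 7 ± 6.93 (SD, n = 3) against 0 ± 0 (SD, n = 3) in the Gsx2 window. Without replicate 3, OTX2 exceeded input by 5.5 peaks in the Olig window and by 3 in the Gsx2 window, so that library set much of the size of both differences. The exact two-sided permutation test gave p = 0.10 for each window (Benjamini-Hochberg adjusted p = 0.10 over the 2), the smallest p that 3 against 3 libraries allow. Every OTX2 list exceeded every input list in 14.5% of the 4379 tiles of 600 kb into which 20 chromosomes were divided. A peak of any control list was present in 10.8% of tiles, so 0 control peaks is the usual state of a stretch this long. The labels do not say whether libraries came from separate litters, so the p-values refer to these libraries only. At this smallest value they reflect the order of the lists and not the spread between them.

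**Figure D1:**
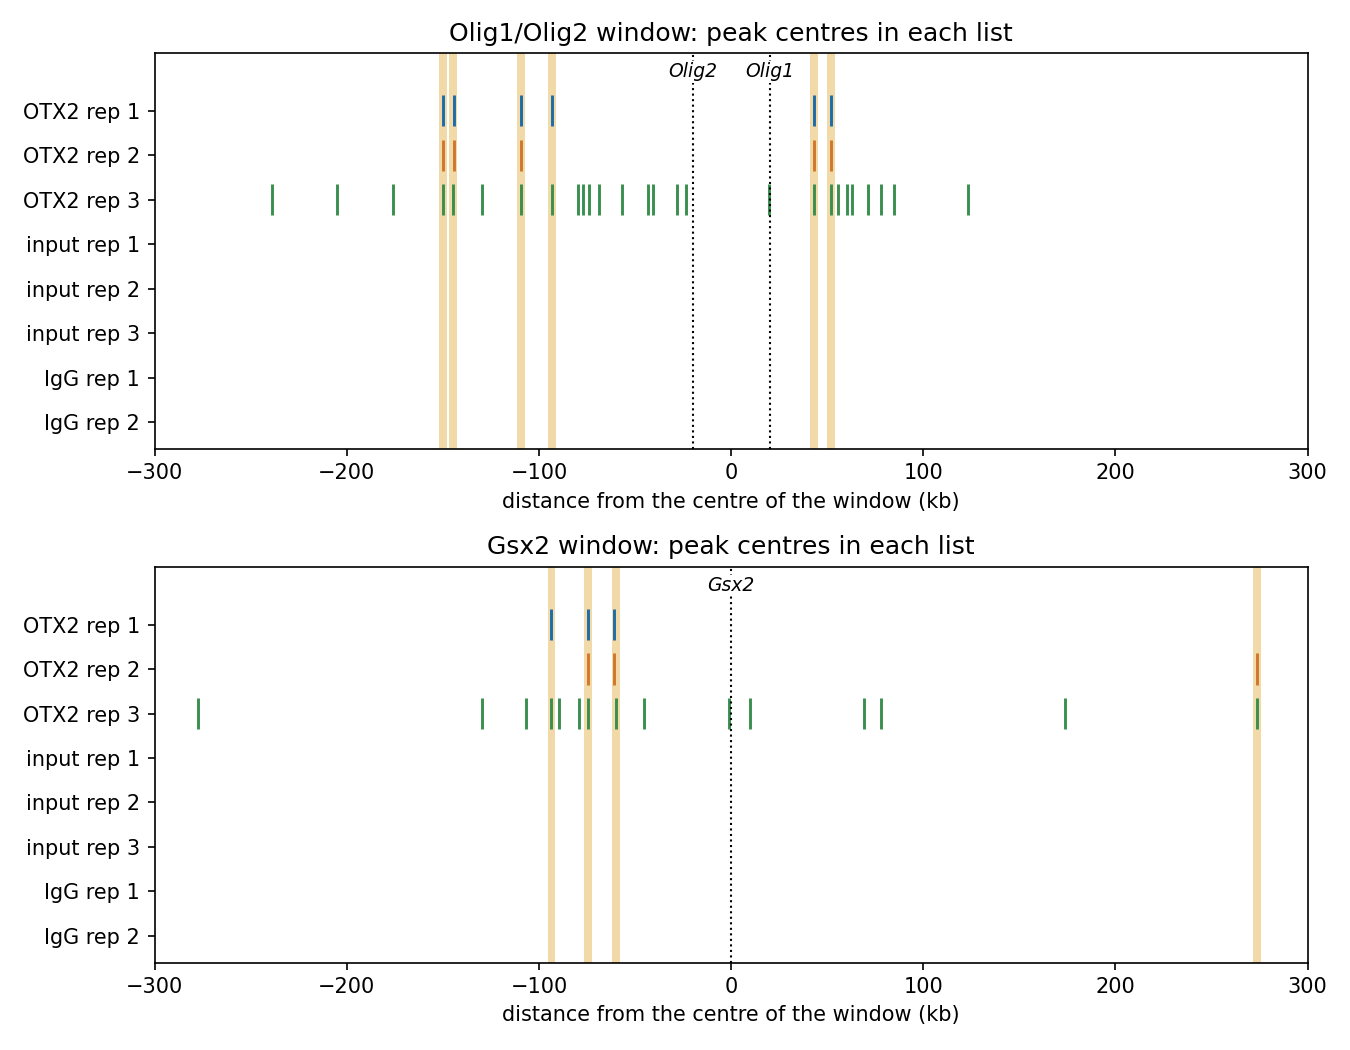
Peak centres in the 8 lists over the Olig1/Olig2 window (top) and the Gsx2 window (bottom), by distance in kb from the centre of the window. Each line is 1 peak centre, shaded bands (drawn wider than scale) mark the 10 OTX2 regions, and dotted lines mark gene positions rounded to 10 kb. The 5 control rows are empty.

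Both loci were denser in OTX2 peaks than most of the genome. Tiles were counted whether or not reads can be placed in them. A tile had on average 0.417, 0.293 and 5.08 peaks of replicates 1, 2 and 3. Tiles with at least as many peaks as the Olig window made up 0.251% for replicate 1, 0.343% for replicate 2 and 0.206% for replicate 3. For the Gsx2 window these percentages were 3.38%, 1.78% and 4.8%. The Olig window was therefore among the fullest stretches in all 3 lists, and the Gsx2 window less far out. Both windows had more peaks than the stretches beside them. The 600 kb below the Olig window had 2, 0 and 13 peaks in replicates 1, 2 and 3, and the 600 kb above had 0, 0 and 10. In replicate 3 these flanks were thus also above the tile mean of 5.08. Beside the Gsx2 window, replicates 1 and 2 had 0 peaks on both sides, and replicate 3 had 5 below and 7 above. No control peak lay in any of these 4 flanks.

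Peaks that overlapped across at least 2 of the 3 OTX2 lists, with no input or IgG peak on them, were merged into an OTX2 region. The Olig window held 6 regions, 5 of them in all 3 lists, and the Gsx2 window held 4, of which 2 were in all 3 lists. Regions in all 3 lists were 40.5% of the 1949 in the genome. At least 6 regions were found in 0.365% of tiles and at least 4 in 1.42%, while 3132 of 4379 tiles had none. With replicates 1 and 2 alone, which share one naming of their track, the Olig window held 4 regions and the Gsx2 window 2. Both counts thus rested in part on replicate 3.

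**Figure D2:**
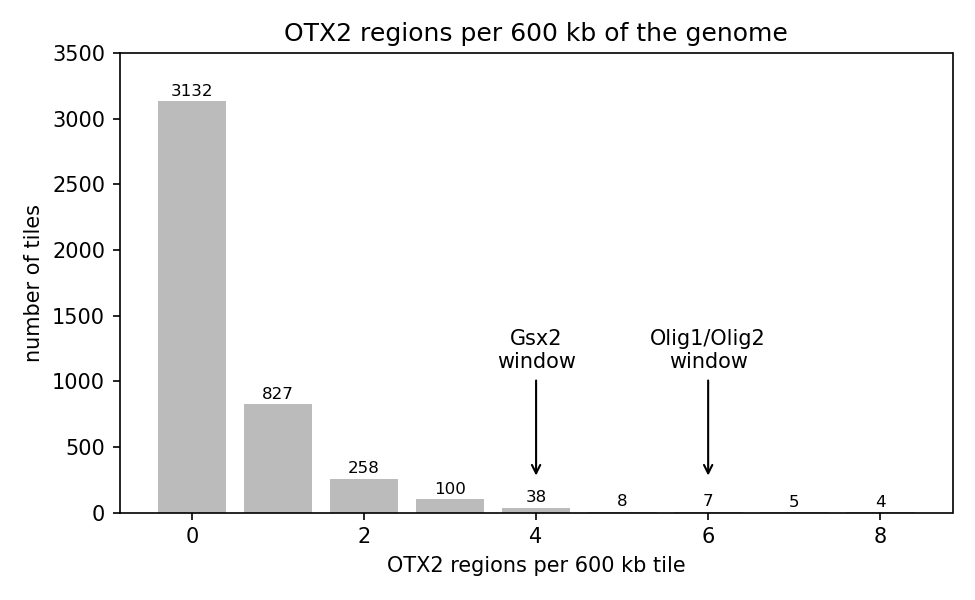
Number of 600 kb tiles (y axis) with each number of OTX2 regions (x axis), counted over 4379 tiles. Arrows mark the 6 regions of the Olig1/Olig2 window and the 4 regions of the Gsx2 window, with 38 tiles at 4 regions and 7 tiles at 6.

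The regions of the Olig locus formed a group of 4 on the lower-coordinate side of Olig2 and a pair on the higher-coordinate side of Olig1. No region lay between the 2 genes. Distances are from gene positions rounded to 10 kb and so are approximate. The farthest region, at 91099353 to 91100650, was centred 130 kb from Olig2. It ranked 553 of 1848 in replicate 1, 350 of 1298 in replicate 2 and 177 of 22325 in replicate 3. Its neighbour at 91103821 to 91106750 was centred 5.28 kb from it, 125 kb from Olig2. This second region had the best rank of the locus in replicates 1 and 3 (66 and 126) and ranked 185 in replicate 2. Its replicate 3 peak was 2930 bp wide, and the peaks of 363 bp and 597 bp in replicates 1 and 2 both lay in its higher-coordinate part.

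The third region, at 91139665 to 91141931, lay 89 kb from Olig2. It ranked 230, 167 and 217 in replicates 1, 2 and 3 and was the best-ranked of the locus in replicate 2. The centres of its replicate 1 and 2 peaks were 10 bp apart in position, with widths of 389 and 395 bp. Its placement was thus nearly the same in both narrow lists. The fourth region, at 91156330 to 91157534, lay 73 kb from Olig2 and was the 1 region of the locus missing from replicate 2. It ranked 500 in replicate 1 and 628 in replicate 3.

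On the other side, a region at 91292110 to 91294007 lay 23 kb from Olig1, the closest of all 10 regions to a member gene. It ranked 728, 187 and 140 in replicates 1, 2 and 3. Its order therefore differed between lists: it was the second of 27 peaks of the window in replicate 3 and the fifth of 6 in replicate 1. The last region, at 91300697 to 91303079, lay 32 kb from Olig1 and ranked 786, 795 and 1744. Its replicate 1 peak (91301640 to 91301861) and its replicate 2 peak (91301916 to 91302083) did not overlap each other and were joined only by the replicate 3 peak of 2383 bp. This was so for 5.32% of the 789 regions in all 3 lists.

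The Gsx2 locus had 3 regions on the lower-coordinate side of the gene, spaced 19.0 and 14.5 kb apart, and 1 far on the other side. The region at 75375895 to 75377015 lay 94 kb from Gsx2 and ranked 1087 in replicate 1 and 1730 in replicate 3. It had no peak in replicate 2. The region at 75394680 to 75396264 lay 75 kb from Gsx2. It ranked 361, 106 and 200 in replicates 1, 2 and 3 and was the best-ranked of the locus in replicate 2. The next region, at 75407737 to 75412178, lay 60 kb from Gsx2 and ranked 104, 239 and 156, the best of the locus in replicates 1 and 3. Its replicate 3 peak was 4442 bp wide, and 2.44% of the 656 peaks nearest to it in rank were at least as wide. The replicate 1 and 2 peaks there (547 and 353 bp) lay in its lower-coordinate part.

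The fourth region, at 75742770 to 75744351, was centred 274 kb from Gsx2, near the edge of the window and 334 kb from the nearest other region. It ranked 712 of 1298 in replicate 2 and 318 of 22325 in replicate 3, and replicate 1 had no peak there. Among the 318 replicate 3 peaks ranked that well, replicate 1 overlapped 97.5%, so this region was 1 of 8 exceptions. In a window of 300 kb around the gene it was lost and 3 regions remained.

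**Figure D3:**
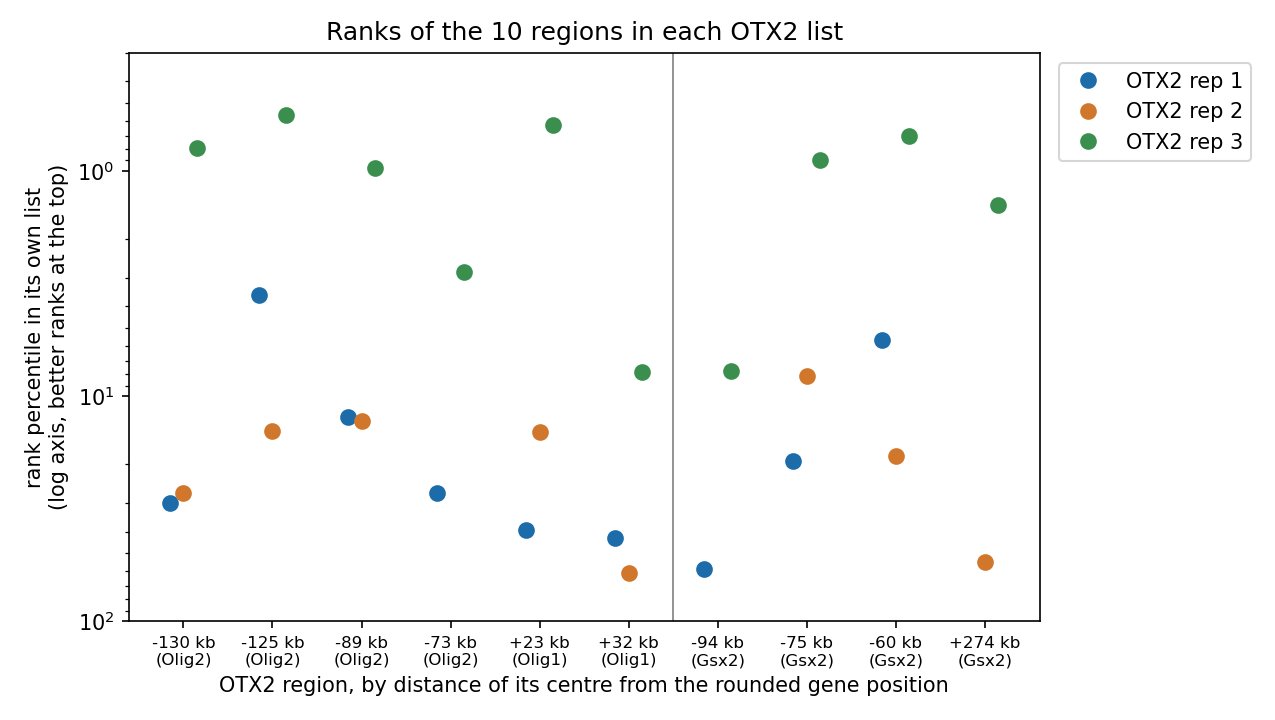
Rank of each of the 10 OTX2 regions in each OTX2 list, as a percentile of that list (log axis, better ranks at the top), with regions ordered by position and labelled by distance in kb from the rounded gene position. A missing point means no peak in that list. In replicate 3 all 10 regions sit within the best-ranked 7.81%.

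The 10 regions ranked well in their lists, read here as a description without a test. Their median rank percentile was 27.1 in replicate 1 (9 regions), 16.4 in replicate 2 (8 regions) and 0.934 in replicate 3 (10 regions). Over all regions of the genome these medians were 46.3, 47.5 and 4.98. Ranges were wide, from 3.57 to 58.8 in replicate 1, 8.17 to 61.2 in replicate 2 and 0.564 to 7.81 in replicate 3. Their median width of 1742 bp compared with 1372 bp for all regions. Each of the 10 had the width of its replicate 3 peak, and this contrast was not matched for rank. The replicate 3 peaks nearest in rank to each had median widths of 1232 to 1630 bp. In the 7 regions with peaks in replicates 1 and 2, the centres of these peaks were 32 bp apart at the median (7 to 249 bp), against 46 bp over 794 such regions.

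Regions also lay close together. Another region was centred within 50 kb of all 6 regions of the Olig locus and of 3 of 4 at the Gsx2 locus. This held for 24.8% of regions genome-wide, and for 62.8% of the 301 regions in tiles that had at least 4. Windows with many regions have close neighbours more often, so the second percentage is the nearer background.

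All 9 replicate 1 peaks and all 8 replicate 2 peaks of the loci were overlapped by replicate 3, with a genome-wide background of 87.9% and 92.1%. Replicate 2 overlapped 6 of the 9 replicate 1 peaks (66.7%, 95% Clopper-Pearson interval 29.9 to 92.5%), an interval that includes the 43% of the whole list. In the other direction, replicate 1 overlapped 6 of 8 replicate 2 peaks (75%, 34.9 to 96.8%), against 61.6%. Intervals cover counting error only, and neighbouring peaks are not independent.

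Of the 27 replicate 3 peaks in the Olig window, 6 were overlapped by replicate 1 or 2 (22.2%, 8.62 to 42.3%), and of 15 in the Gsx2 window, 4 (26.7%, 7.79 to 55.1%). The share over the whole list was 8.83%. The loci also held more of the well-ranked peaks: 14 of their 42 replicate 3 peaks (33.3%, 19.6 to 49.5%) were in the best-ranked 10%. Among those 14, replicates 1 or 2 overlapped 10 (71.4%, 41.9 to 91.6%), near the 64.6% of all peaks in that class. Among the other 28, none was overlapped, where the list as a whole gave 2.64%. For these 28 the interval was 0 to 12.3%. In both rank classes the interval thus included the share of the whole list, but so few peaks cannot show agreement. The classes are coarse, and ranks were not matched within them.

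Outside the regions, replicate 3 had 32 peaks that neither other list had. In the Olig window the best-ranked of these were centred 23, 57 and 49 kb below Olig2, with ranks of 1043 (91206316 to 91207425), 1674 (91172140 to 91174102) and 2545 (91180942 to 91181935). All 3 lay between Olig2 and the regions farther out. In the Gsx2 window the best-ranked were at 75547303 to 75548629 (rank 1349, 78 kb above Gsx2), 75478282 to 75481798 (rank 1478, 10 kb above) and 75466605 to 75471408 (rank 8232). The last of these spans the rounded position of Gsx2. These peaks have no replicate.

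Peaks centred within 10 kb of the rounded gene positions were seen in replicate 3 only, with ranks of 8232 or worse. The peak of rank 1478, centred 10.04 kb above Gsx2, fell just outside this limit. The limit is no finer than the rounding of the positions. Within 10 kb of Olig2, replicates 1 and 2 had 0 peaks and replicate 3 had 2, ranked 9423 (91224840 to 91228578) and 12466 (91221346 to 91222219). Within 10 kb of Olig1 replicate 3 had 1 peak, ranked 11910 (91269539 to 91269976), and within 10 kb of Gsx2 it had the 1 ranked 8232. The peaks near Olig2 and Olig1 were singled out after their values were seen. Whether any of these peaks covers a transcription start was not determined, since no mm9 annotation was used.

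Width set apart the peaks nearest to Olig2 and Gsx2. The Gsx2 peak was 4804 bp wide, where the median of the 1001 peaks within 500 ranks of it was 867 bp, and 0.0999% (the peak itself) were at least as wide. The Olig2 peak was 3739 bp wide against a median of 861 bp, and 0.2% (itself and 1 other) were at least as wide. The peak near Olig1 was the opposite, 438 bp wide against a median of 782 bp, and 99.7% were at least as wide. The peak 10 kb above Gsx2, 3517 bp wide, also lay in the upper tail for its rank, with 2.7% at least as wide. The second peak near Olig2, 874 bp wide, was ordinary for its rank (37% at least as wide). Broad peaks were thus nearest to Olig2 and Gsx2, and a narrow one to Olig1, in 1 library and with no control peak in either window.

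Widths were then read over the whole list, with a limit chosen after these peaks had been seen and so without a test. At least 3000 bp were reached by 1.16% of the 22325 replicate 3 peaks and by 4 of the 42 at these loci (9.52%). Beyond the best-ranked 10% of the list, 0.697% of peaks were that broad. At these loci 2 of 28 were, the peaks nearest to Olig2 and Gsx2. Replicate 1 or 2 overlapped 44.8% of the 259 broad peaks and 1 of the 4 at these loci, the region 60 kb from Gsx2.

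**Figure D4:**
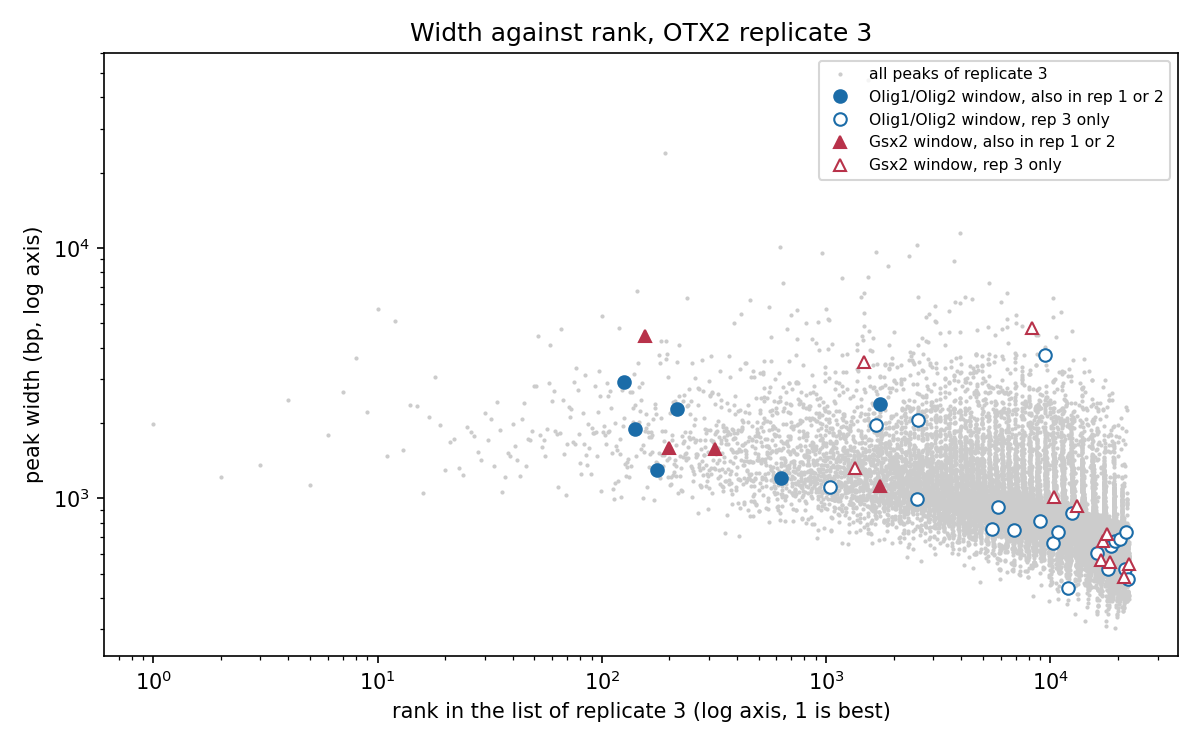
Peak width in bp (log axis) against rank (log axis, 1 is best) for all 22325 peaks of OTX2 replicate 3 (grey) and those of the Olig1/Olig2 window (circles) and the Gsx2 window (triangles). Filled symbols were overlapped by replicate 1 or 2. The open triangle of 4804 bp at rank 8232 and the open circle of 3739 bp at rank 9423 are the peaks nearest to Gsx2 and Olig2.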

How the data were processed

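OTX2 ChIP, input and IgG libraries of E12.5 CD-1 subpallium were deposited as 1 BED peak list per library, so the authors called peaks per sample. BWA, MACS 1.4 and mm9 are listed, per the submitters' processing notes. For the control used, the threshold, the filters and the quantity behind the deposited ranks, nothing is given in these sources. Depth is unknown, so ranks were read only within a list, and wide peaks in replicate 3 ease overlap.

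Peaks sharing at least 1 bp were grouped with Python 3.11.15, and tests used scipy 1.17.1. Grouping was checked on simulated peaks, and the number of overlapped peaks against bedtools 2.31.1. The simulated peaks were narrow and far apart, so joining by a broad peak was not checked. The tests were checked on short sets of numbers with known p-values. Tiles of 600 kb ran from the start of 20 chromosomes to the last peak. Percentiles are rank over list length. Named in the text are all regions, the 3 best-ranked peaks per window found in 1 list, all control peaks, the 3 genes and their neighbours in the GRCm38 table. Members, lists and rules were chosen with earlier results of these data known. Alternatives covered overlap, width, window, controls, pairing and left-out replicates.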

Additional observations from a re-analysis of the deposited data

How the results depend on the processing

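Of 36 alternatives for the counts of regions and shares of peaks, 31 were classed as unchanged, but this class was loose. At Olig it took in a fall from 6 to 4 regions without replicate 3. It also took in a rise of the overlapped share from 22.2% to 35.3% with the better-ranked 50% of each list. Keeping regions with control peaks could not change either count, since no control peak lay in the windows. The tests of peak number with 3 against 3 libraries or fewer could not pass 0.05, so 14 unchanged calls there say nothing about stability. The difference itself ranged from 5.5 to 16.5 (Olig) and from 3 to 9 (Gsx2) with 1 replicate left out, lowest without replicate 3. No direction reversed, but none could, because every control list had 0 peaks in both windows. The unchanged direction therefore says nothing about stability. With input and IgG together as controls (3 against 5 libraries), the difference in peak number stayed at 12.7 (Olig) and 7 (Gsx2). Its p fell below the threshold (exact permutation test, adjusted p = 0.036), the smallest that 3 against 5 libraries allow. It fell because IgG lists that were also at 0 were added, so it does not show a stronger difference. Pooling them treats input and IgG as interchangeable. Adjusted p ranged from 0.036 to 0.333 over all alternatives of this comparison. Testing OTX2 and input of the same number as pairs, with replicate as the block, gave differences of 12.7 and 7 (exact sign-flip permutation test, adjusted p = 0.25, the smallest 3 pairs allow). All input values were 0, so whether same-numbered libraries deviate together could not be computed. Requiring any 1 library gave 27 regions at Olig and 15 at Gsx2. At Gsx2, requiring all 3 libraries gave 2 regions, and the better-ranked 50% of each list gave 2. Leaving out 1 replicate gave 4 to 6 regions at Olig and 2 to 3 at Gsx2, with the lowest counts without replicate 3. Unknown depth means that a missing peak does not show missing binding.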
